A study of Mus musculus with 49 samples.

Results

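Sorl1, Tlcd2, Tuba1a, Ptges and BC090627 are 5 transcripts of mouse white fat out of 22869 measured gene symbols. They were chosen by their values in the drug experiment, because their response to the diabetes drug rosiglitazone differed there between the inbred strains C57BL/6 and 129S1/SvImJ. Each of them had 1 transcript row in every deposited table: NM_011436 for Sorl1, NM_027249 for Tlcd2, NM_011653 for Tuba1a, NM_022415 for Ptges and NR_004843 for BC090627. Since the drug experiment chose them, their values there are given below as a description with no test. Only the libraries outside the drug experiment could test them.

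The study sequenced RNA of epididymal (eWAT) and inguinal (iWAT) white adipose tissue of the 2 strains. In the drug experiment, eWAT came from mice on control low fat diet D12450B for 10 weeks, from 6 to 16 weeks of age. For the final 2 weeks, until 18 weeks of age, they had the same diet without drug (4 libraries of each strain) or with 36 mg rosiglitazone per kg (4 of each strain). The other libraries had no drug: eWAT of chow-fed mice (5 of each strain), eWAT of mice on the control low fat diet labelled 12w (5 of C57BL/6 and 4 of 129S1/SvImJ), and iWAT under the same 12w label (4 of each strain). The labels attach the text on ages and weeks of diet to every sample; since it describes drug feeding, it was read here as the drug experiment's, and whether it also holds for the chow and 12w mice is not settled. No label says whether libraries came from separate animals. The p-values therefore reflect only how much these libraries vary, which may in part be technical. F1 mice and 1 nascent RNA sample were not analysed here.

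Rosiglitazone is a thiazolidinedione, a synthetic ligand of PPARG, the nuclear receptor that drives fat cell formation. PPARG pairs with RXR on DNA at repeats of the letters AGGTCA and, with a ligand bound, raises genes of lipid storage and fatty acid oxidation, while other genes of the fat cell fall. The 5 transcripts have different roles. Sorl1 encodes a sorting receptor of the endosome and trans-Golgi network that carries cargo such as lipoprotein lipase and the insulin receptor. Tlcd2 encodes a membrane protein with a TLC domain that affects the fatty acid makeup of membrane phospholipids. Tuba1a encodes an alpha tubulin, a building block of microtubules. Ptges encodes the inducible microsomal prostaglandin E synthase, the last step in making prostaglandin E from the cyclooxygenase product. BC090627 is a noncoding transcript that RefSeq now lists as Gm44502, a readthrough transcript of choline kinase beta (Chkb) and the muscle-type carnitine palmitoyltransferase Cpt1b, which lets long-chain fatty acids into mitochondria.

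The 250 bases before the start of each gene are shown because members with opposite responses can be compared in them for the letters that PPARG and RXR read. They are from RefSeq, build GRCm38.p6, and are written 5′ to 3′ on the strand of the gene. The files use build mm9, and no coordinate of the files is used here. The stretches are chr9:42124298-42124547 on the minus strand for Sorl1 (the outer of its 2 listed starts), chr11:75467800-75468049 on the plus strand for Tlcd2, chr15:98953502-98953751 on the minus strand for Tuba1a and chr2:30903298-30903547 on the minus strand for Ptges. Gm44502 has no entry of its own, and its outer ends are those of Cpt1b and Chkb, so chr15:89429928-89430177 on the minus strand, before Chkb, is given for BC090627. Capitals mark matches, on either strand, to the GC box GGGCGG, the CCAAT box CCAAT and the TATA box TATANAA.
Sorl1: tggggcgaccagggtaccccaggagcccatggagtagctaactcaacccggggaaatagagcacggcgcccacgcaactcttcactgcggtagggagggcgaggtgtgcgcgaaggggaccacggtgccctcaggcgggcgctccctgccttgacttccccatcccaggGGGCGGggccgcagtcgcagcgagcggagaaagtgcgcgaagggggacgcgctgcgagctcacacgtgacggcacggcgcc
Tlcd2: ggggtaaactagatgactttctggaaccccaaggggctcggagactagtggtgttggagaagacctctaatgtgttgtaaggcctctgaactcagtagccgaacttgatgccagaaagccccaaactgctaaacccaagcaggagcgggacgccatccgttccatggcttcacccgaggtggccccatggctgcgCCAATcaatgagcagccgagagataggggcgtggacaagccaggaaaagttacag
Tuba1a: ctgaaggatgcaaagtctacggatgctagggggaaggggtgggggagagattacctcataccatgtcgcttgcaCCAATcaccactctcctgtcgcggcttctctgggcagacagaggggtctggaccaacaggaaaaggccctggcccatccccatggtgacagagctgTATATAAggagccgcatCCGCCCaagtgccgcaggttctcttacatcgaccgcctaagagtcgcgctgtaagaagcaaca
Ptges: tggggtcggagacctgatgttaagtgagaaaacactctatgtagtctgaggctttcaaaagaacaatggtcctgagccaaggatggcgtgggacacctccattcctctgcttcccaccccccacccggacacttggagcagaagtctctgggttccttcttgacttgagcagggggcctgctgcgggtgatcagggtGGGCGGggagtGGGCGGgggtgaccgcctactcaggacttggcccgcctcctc
Chkb: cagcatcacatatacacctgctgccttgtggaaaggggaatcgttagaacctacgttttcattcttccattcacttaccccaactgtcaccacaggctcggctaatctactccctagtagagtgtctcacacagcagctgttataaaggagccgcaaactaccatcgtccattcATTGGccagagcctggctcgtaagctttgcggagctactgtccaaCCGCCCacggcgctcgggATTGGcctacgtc

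None of the 5 stretches held AGGTCA on either strand, and so none held the direct repeat of these letters with 1 base between (DR1). Of 32851 RefSeq promoters cut to the same length, 14% held AGGTCA and 0.0335% the direct repeat. A GC box stood in the stretches of Sorl1, Tuba1a, Ptges (2 matches) and Chkb, and in 32.7% of all. A CCAAT box stood in those of Tlcd2, Tuba1a and Chkb (2 matches), and in 33.8% of all. Tuba1a alone of the 5 had a TATA box, against 10.4% of all promoters. These are matches of letters in a short window and say nothing of binding at these genes or elsewhere. The stretch before Cpt1b, the other gene that BC090627 spans, was not searched. On the drug Cpt1b rose more than Chkb in both strains, as given below. The absence of AGGTCA before Chkb therefore says nothing of the letters before Cpt1b.

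The values are the authors' normalized values, whole numbers with a floor of 1 that are not read counts, so the depth behind each value is unknown and no counting interval was computed. Differences are on the log2(value + 1) scale, which makes the change of low values look smaller, and are given ± SE of the fit. Adipocyte markers were high in 42 of the 43 libraries, with sums over 8 genes of at least 95510. The exception was replicate 2 of chow-fed 129S1/SvImJ, whose adipocyte markers summed to 17760 and whose 12 epididymis markers summed to 240792; replicate 1 of that group had an epididymis sum of 34034, against 117 to 148 in replicates 3, 4 and 5. Lymphocyte markers (11 genes) summed to over 1000 in 3 of the 8 iWAT libraries: 5369 and 2072 in 129S1/SvImJ replicates 1 and 4, and 2293 in C57BL/6 replicate 4. In C57BL/6 eWAT under the 12w label, replicate 3 had a skeletal muscle sum of 12308 against 170 to 567 in the other 4. Results that rest on the chow and iWAT libraries are given with and without those that stand apart. In bulk tissue, fewer cells of a type and less RNA per cell cannot be told apart.

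In the drug experiment Sorl1, Tuba1a and Ptges were low in every 129S1/SvImJ library on rosiglitazone, Tlcd2 differed in opposite directions in the 2 strains, and BC090627 was higher on the drug in both strains, by more in 129S1/SvImJ. The strain-by-drug difference that chose them was called for 48 of 22869 genes (0.21%) with limma, a count that ranged from 14 to 113 with 1 library left out and was 7 without the trended and robust variance. At an unadjusted p under 0.05 there were 2265 of the 22869 genes. By the size of the statistic of this strain-by-drug difference, Sorl1 ranked 3, Tlcd2 5, Tuba1a 10, Ptges 14 and BC090627 16. These ranks follow from how the 5 were chosen and test nothing.

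Sorl1, the sorting receptor, read 262, 458, 435 and 414 in the 4 C57BL/6 control libraries and 481, 364, 451 and 337 on rosiglitazone. In 129S1/SvImJ it read 299, 217, 306 and 172 on control diet and 72, 65, 79 and 68 on rosiglitazone. The C57BL/6 groups overlapped, whereas the lowest 129S1/SvImJ control library lay at 172 and the highest drug library at 79. The means were 392 ± 88.7 and 408 ± 68.7 in C57BL/6 (SD, n = 4 each), and 248.5 ± 65.1 and 71.0 ± 6.06 in 129S1/SvImJ (SD, n = 4 each), a mean 3.5 times as high without the drug. The drug difference was 0.07 ± 0.18 in C57BL/6 and -1.76 ± 0.18 in 129S1/SvImJ, and these differed by -1.83 ± 0.26.

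Tuba1a, the alpha tubulin, read 1539, 967, 1446 and 1119 in C57BL/6 on control diet and 761, 1004, 1329 and 1367 on the drug. In 129S1/SvImJ it read 2361, 2180, 2580 and 2075 on control diet and 743, 455, 676 and 618 on the drug. Without drug every 129S1/SvImJ library was above every C57BL/6 library, and on the drug every one was below. The 129S1/SvImJ means were 2299 ± 221 and 623 ± 123 (SD, n = 4 each), 3.69 times as high without the drug. The drug difference was -0.20 ± 0.19 in C57BL/6 and -1.90 ± 0.19 in 129S1/SvImJ.

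Ptges, the prostaglandin E synthase, had the same crossing. It read 166, 267, 258 and 282 in C57BL/6 on control diet and 233, 249, 453 and 444 on the drug. In 129S1/SvImJ it read 648, 389, 533 and 590 on control diet and 209, 195, 179 and 208 on the drug. The C57BL/6 drug libraries fell into a low pair and a high pair, and the low pair lay inside the range of the controls. The means were 243 ± 52.4 and 344.8 ± 120.0 in C57BL/6 (SD, n = 4 each) and 540.0 ± 111 and 198 ± 14 in 129S1/SvImJ (SD, n = 4 each). The drug difference was 0.46 ± 0.22 in C57BL/6 and -1.42 ± 0.22 in 129S1/SvImJ.

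Tlcd2, the TLC domain protein, was the member with opposite directions in which the groups of neither strain overlapped. It read 32, 44, 33 and 53 in C57BL/6 on control diet and 88, 61, 78 and 106 on the drug. In 129S1/SvImJ it read 184, 188, 277 and 171 on control diet and 130, 114, 98 and 137 on the drug. Control libraries of the strains were far apart, with means of 40.5 ± 9.95 in C57BL/6 and 205 ± 48.5 in 129S1/SvImJ (SD, n = 4 each). On the drug the means were 83.2 ± 18.8 and 119.8 ± 17.4 (SD, n = 4 each), and the ranges of the strains overlapped. The drug difference was 1.02 ± 0.19 in C57BL/6 and -0.76 ± 0.19 in 129S1/SvImJ.

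BC090627 was the 1 member that was higher on the drug in both strains without overlap. It read 189, 155, 164 and 159 in C57BL/6 on control diet and 243, 268, 251 and 272 on the drug. In 129S1/SvImJ it read 168, 204, 195 and 130 on control diet and 526, 748, 492 and 621 on the drug. The control libraries of the strains overlapped, and every drug library was above every control library. The drug difference was 0.63 ± 0.14 in C57BL/6 and 1.77 ± 0.14 in 129S1/SvImJ, and the 129S1/SvImJ mean was 3.42 times as high on the drug.

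**Figure D1:**
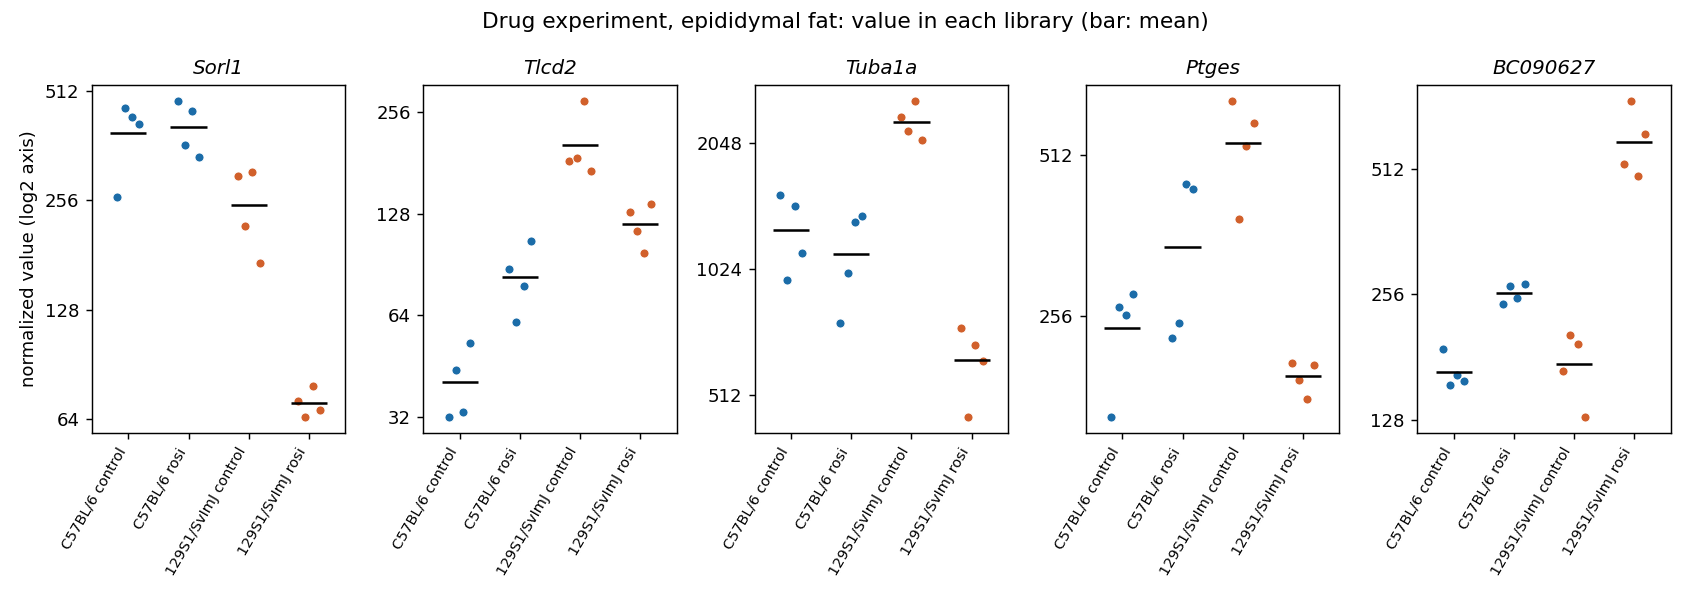
Normalized value (log2 axis) of each library of the drug experiment, 1 panel per transcript, with C57BL/6 in blue, 129S1/SvImJ in orange and the group mean as a bar (n = 4 per group). Sorl1 and Tuba1a lie lowest in 129S1/SvImJ on rosiglitazone (65 to 79 and 455 to 743), and BC090627 lies highest there (492 to 748). Ptges has its lowest group mean there (179 to 209), but 1 C57BL/6 control library is lower (166).

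The authors' deposited table gives log2 ratios of drug to control of 0.12 in C57BL/6 and -1.85 in 129S1/SvImJ for Sorl1, and -0.06 and -1.82 for Tuba1a. In the authors' deposited table the ratios are 0.56 and -1.42 for Ptges, 1.05 and -0.78 for Tlcd2, and 0.68 and 1.84 for BC090627. They come from the same libraries as the differences above, so their shared signs for all 5 transcripts in both strains are no separate evidence.

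Cell type markers also differed between these groups. In 129S1/SvImJ the adipocyte sum was 108255 to 120893 on control diet and 152092 to 160413 on the drug. In C57BL/6 it was 108866 to 121255 and 124646 to 143670. Of the 8 adipocyte markers, 3 were higher on the drug and 1 lower in 129S1/SvImJ by limma (2.96% and 2.56% of all genes). Their median log2 difference there was 0.05. In C57BL/6 1 was higher and 0 lower (1.53% and 0.901% of all genes), with a median of 0.11. Some adipocyte markers, such as Adipoq and Cidec, are also on the list of PPARG agonist responsive genes used below. Mesothelial markers (9 genes) summed to 1527 to 2367 in 129S1/SvImJ on control diet and 683 to 1625 on the drug, against 400 to 2858 and 1291 to 2289 in C57BL/6. Progenitor and fibroblast markers (10 genes) summed to 19352 to 23871 and 12159 to 20908 in 129S1/SvImJ, and to 9938 to 18846 and 7324 to 10632 in C57BL/6. Macrophage markers (13 genes) summed to 4835 to 7089 and 2884 to 5005 in 129S1/SvImJ, and to 4558 to 8319 and 2578 to 5870 in C57BL/6. Endothelial markers (11 genes) summed to 3491 to 4497 and 3111 to 4982 in 129S1/SvImJ, and to 5295 to 8058 and 4013 to 6508 in C57BL/6. None of these markers averaged 5 or less in any of the 4 groups, while all 12 epididymis markers did in every group. The median strain-by-drug difference was -1.56 over the mesothelial markers, beside -0.05 for adipocyte, -0.05 for macrophage, 0.30 for progenitor and 0.30 for endothelial markers. No single marker of these lists passed with limma. An unadjusted p under 0.05 was found for 5 mesothelial, 3 adipocyte, 2 progenitor, 2 endothelial and 0 macrophage markers. The part of cell composition in the members' values was not tested.

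Pparg, the drug's receptor, averaged 912 ± 67.2 and 932.5 ± 99.9 in C57BL/6 without and with drug (SD, n = 4 each), and 1165.5 ± 86.7 and 834.5 ± 102 in 129S1/SvImJ (SD, n = 4 each). It fell by 0.49 on the log2 scale on the drug in 129S1/SvImJ (adjusted p = 0.00408, limma), and its strain-by-drug difference of -0.51 ± 0.14 did not pass (adjusted p = 0.146). Of 29 genes of a list of textbook PPARG agonist responsive genes, which holds Cpt1b, 13 rose and 0 fell in C57BL/6, where 1.53% of all genes rose and 0.901% fell. In 129S1/SvImJ 18 rose and 1, Pparg, fell, where 2.96% of all genes rose and 2.56% fell. The list's median difference was 0.43 in C57BL/6 and 0.86 in 129S1/SvImJ, beside 0.00 over all genes in both. In C57BL/6 the lipid droplet protein Cidea rose by 1.79 and the fatty acid activating enzyme Acsl1 by 0.97. In 129S1/SvImJ Acsl1 rose by 1.42, Cidea by 2.31 and the glycerol channel Aqp7 by 1.08. For the strain-by-drug difference 2 of the 29 were higher, Ucp1 (4.62 ± 0.75, adjusted p = 0.0165) and Mgll (0.51 ± 0.11, adjusted p = 0.0494), and 1 was lower, Gpd1 (-0.96 ± 0.17, adjusted p = 0.0165), against 0.0743% and 0.136% of all genes. Ucp1, the uncoupling protein of thermogenic fat, averaged 3.75 and 4.00 in C57BL/6 without and with drug, and 21.5 and 412 in 129S1/SvImJ. Gpd1, which makes the glycerol backbone of triglycerides, rose by 1.32 in C57BL/6.

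Among 20 other sorting receptors and retromer parts, 0 rose and 1 fell in C57BL/6, and 1 rose and 1 fell in 129S1/SvImJ. For the strain-by-drug difference 0 of the 20 passed with limma (3 at an unadjusted p under 0.05), and their median there was -0.09, beside -0.02 over all genes. Lrp1, a large endocytic receptor, fell in both strains (-0.53 and -0.49), and Vldlr, a lipoprotein receptor, rose in 129S1/SvImJ (0.47). Nothing else on the list passed in either strain. Sort1 (sortilin), a receptor with the same VPS10 domain as Sorl1 and named here after its values were seen, had differences of 0.31 and 0.30 that did not pass (adjusted p = 0.118 and 0.0918).

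Of 15 other TLC domain genes, 1 rose in C57BL/6, Fam57b (1.02), and 2 in 129S1/SvImJ, Tmem56 (3.18) and the ceramide synthase Lass4 (0.45), and 0 passed for the strain-by-drug difference with limma (5 at an unadjusted p under 0.05). Tlcd1, named after its values were seen, averaged 99.2 and 136 in C57BL/6 without and with drug, and 212 and 151 in 129S1/SvImJ. Its strain-by-drug difference was -0.95 ± 0.21 and did not pass (adjusted p = 0.0740). The median strain-by-drug difference of the 15 was -0.08, beside -0.02 over all genes.

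Of 24 other genes of prostaglandin synthesis, breakdown and reception, 0 passed in C57BL/6 and 1 in 129S1/SvImJ by limma, the prostaglandin reductase Ptgr1, which fell by 1.13 (adjusted p = 0.0100). In C57BL/6 5 had an unadjusted p under 0.05, beside 3170 of all 22869 genes. The other prostaglandin E synthases were looked up after their values were seen. Ptges2 averaged 130.2 and 179.5 in 129S1/SvImJ without and with drug, with a difference of 0.45 ± 0.17 that did not pass (adjusted p = 0.138), and Ptges3 averaged 140.2 and 136.5. For the strain-by-drug difference 0 of the 24 passed with limma (6 at an unadjusted p under 0.05), and their median there was -0.23.

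Several tubulins besides Tuba1a differed on the drug. Besides Tuba1a 19 were measured, of which 9 reached a group mean of 20 in the drug experiment. In 129S1/SvImJ 4 fell on the drug and 0 rose: Tubb2a (-0.86 ± 0.19), Tuba1b (-0.81 ± 0.11), Tubb4b (-0.76 ± 0.10) and Tubb5 (-0.63 ± 0.11). In C57BL/6 3 rose and 0 fell: Tubg1, the gamma tubulin of microtubule ends (0.48 ± 0.13), Tuba1b (0.42 ± 0.11) and Tubb4b (0.39 ± 0.10). The strain-by-drug difference was called for Tuba1b (-1.22 ± 0.16) and Tubb4b (-1.15 ± 0.14), each at an adjusted p of 0.00138 with limma. Tuba1b read 500, 463, 473 and 558 in C57BL/6 on control diet and 621, 615, 753 and 674 on the drug. In 129S1/SvImJ it read 899, 887, 892 and 845 and then 562, 383, 551 and 539. These groups did not overlap in either strain. Tuba1a and Tuba1b are 98.3% identical over their 1356 coding bases, Tuba1a and Tuba1c 97.1%, with identical runs of up to 281 and 446 bases, so the counting could have split reads between them and the value of each is uncertain.

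**Figure D2:**
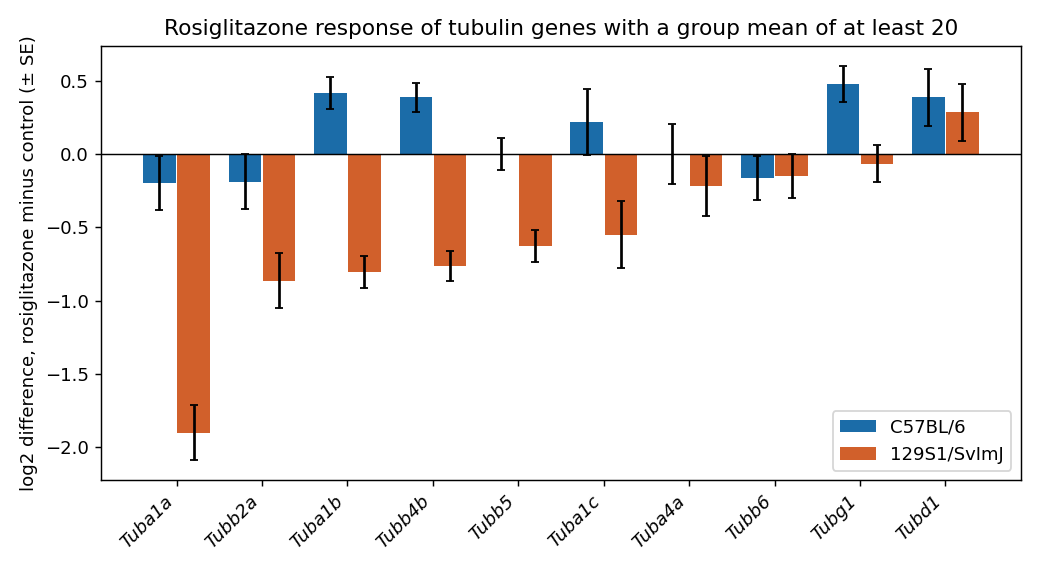
Rosiglitazone minus control (log2 difference ± SE) for the 10 tubulin genes with a mean of at least 20 in any group of the drug experiment, with C57BL/6 in blue and 129S1/SvImJ in orange. Tuba1a has the lowest 129S1/SvImJ value (-1.90), and Tuba1b and Tubb4b lie above 0 in C57BL/6 (0.42 and 0.39) and below 0 in 129S1/SvImJ (-0.81 and -0.76).

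BC090627 could be set against the 2 genes it spans, a comparison made after their values had been seen. In each of the 43 libraries its value lay between 0.92 and 1.05 times the sum of Chkb and Cpt1b, with a median of 0.977; 34 libraries were within 5% and all 43 within 10%. Chkb averaged 140.2 ± 13.6 and 157 ± 4.57 in C57BL/6 without and with drug, and 129 ± 14.9 and 191.5 ± 8.66 in 129S1/SvImJ (SD, n = 4 each). Cpt1b averaged 29.2 ± 3.59 and 107 ± 16.9 in C57BL/6, and 49.0 ± 24.4 and 424 ± 116 in 129S1/SvImJ (SD, n = 4 each). So the Cpt1b share of the sum had a median of 17.1% in C57BL/6 controls, 39.7% in C57BL/6 on the drug, 26% in 129S1/SvImJ controls and 68.5% in 129S1/SvImJ on the drug. The drug difference of Cpt1b was 1.83 ± 0.27 in C57BL/6 and 3.19 ± 0.27 in 129S1/SvImJ, larger in both than that of BC090627. The strain-by-drug difference was 1.36 ± 0.39 for Cpt1b and 1.14 ± 0.19 for BC090627, and by the size of the statistic Cpt1b ranked 293. Because the transcripts overlap, the value of BC090627 cannot be told apart from the summed values of Chkb and Cpt1b.

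**Figure D3:**
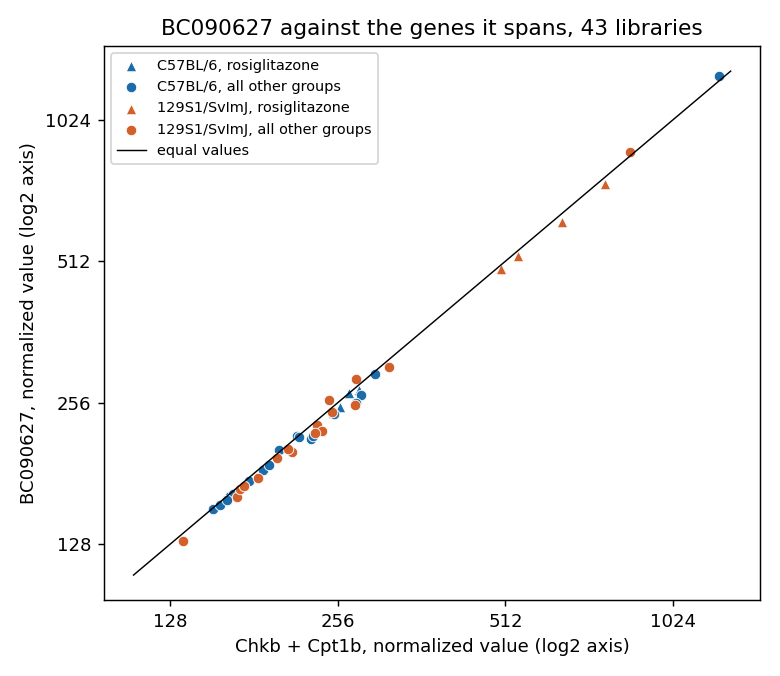
BC090627 against the sum of Chkb and Cpt1b (normalized values, both axes log2) in the 43 libraries, with C57BL/6 in blue, 129S1/SvImJ in orange and rosiglitazone libraries as triangles. The points follow the line of equal values, with ratios from 0.92 to 1.05.

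The genes most like each member were found by Pearson's r over the 16 drug libraries among 11859 genes with a mean of at least 20 in any group of that experiment. These r share the libraries that chose the members and are given as a description, beside r over the other 27 libraries centred on the mean of each table. BC090627 was most like Cpt1b (0.98, and 0.88 in the other libraries), Etfdh, an electron carrier enzyme of fatty acid oxidation (0.96 and 0.47), and Hadha, of the mitochondrial trifunctional protein (0.96 and 0.79). Tuba1a was most like the matrix protease Adamts5 (0.92 and 0.73), P4hb (0.91 and 0.00) and the dynein adaptor Bicd2 (0.89 and 0.68). Sorl1 was most like transferrin, Trf (0.91 and 0.27), Sorbs3 (0.91 and 0.29) and Tardbp (0.90 and 0.35). Ptges was most like Kank2 (0.88 and 0.37), Mid1ip1 (0.88 and 0.24) and Thrsp, a gene of lipid synthesis (0.87 and 0.37). Tlcd2 was most like the chaperonin subunits Cct3 (0.94 and 0.14) and Tcp1 (0.94 and -0.16), and Pole4 (0.93 and 0.19). Between members, r over the drug libraries ranged from -0.80 for Sorl1 and BC090627 to 0.78 for Tuba1a and Ptges.

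Outside the drug experiment, members differed between the strains in eWAT under the 12w label. Under that label the library numbers of the strains are separated by a gap in each depot, and in eWAT the title styles differ too. The numbers of the chow libraries and of the drug libraries run on without a gap. Strain differences under the 12w label therefore cannot be told apart from differences between these series of libraries. In eWAT under that label 3 of the 5 were lower in 129S1/SvImJ and 0 higher, beside 10.2% lower and 11.6% higher among all genes. Sorl1 read 752, 1225, 877, 763 and 1119 in C57BL/6 and 207, 179, 197 and 99 in 129S1/SvImJ, means of 947 ± 214 (SD, n = 5) and 170.5 ± 49.1 (SD, n = 4). Its difference, 129S1/SvImJ minus C57BL/6, was -2.49 ± 0.26 (adjusted p = 9.36e-04, limma). Ptges read 466, 628, 608, 595 and 654 in C57BL/6 and 249, 307, 296 and 301 in 129S1/SvImJ, a difference of -1.03 ± 0.11 (adjusted p = 0.00106, limma). Neither gene had a library of 1 strain inside the range of the other.

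Tuba1a read 2370, 1551, 3468, 1892 and 3110 in C57BL/6 and 632, 887, 700 and 1288 in 129S1/SvImJ, a difference of -1.49 ± 0.31 (adjusted p = 0.0138, limma), again with no overlap. With each of the 9 libraries left out in turn, the muscle-marker library included, the 3 differences stayed called, with adjusted p of 0.00126 to 0.00391 for Sorl1, 7.66e-04 to 0.00435 for Ptges and 0.0123 to 0.0394 for Tuba1a. With the replicate number as a block Tuba1a no longer passed (-1.39, adjusted p = 0.160). Tlcd2 read 130, 296, 210, 137 and 183 in C57BL/6 and 93, 139, 133 and 78 in 129S1/SvImJ. The ranges overlapped between 130 and 139, and the difference of -0.76 ± 0.29 did not pass (adjusted p = 0.119). Its unadjusted p was 0.0356 (limma), with a 95% interval of -1.45 to -0.067. BC090627 read 152 to 217 in C57BL/6 and 161 to 229 in 129S1/SvImJ, and its difference of 0.11 had a 95% interval of -0.21 to 0.43.

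The families of the members gave mixed strain differences there. Of the 20 sorting genes 8 were higher in 129S1/SvImJ, among them the adaptor Gga2 (0.79) and the sorting nexin Snx2 (0.33), and 1 was lower, Sorcs1 (-2.29, means of 11.4 and 1.5). Of the 19 tubulins 6 were lower, among them Tubb3 (-1.95), Tubb2a (-0.79) and Tubb5 (-0.95), and 1 higher, Tuba1c (0.73). Of the 24 prostaglandin genes 4 were higher, such as the receptor Ptgfr (1.07), and 2 lower, the receptor Ptger1 (-1.18) and the transporter Abcc4 (-0.67). Of the 15 TLC genes 3 were higher, Lass4 (0.89), Tmem136 (0.98) and Lass5 (0.25), and 0 lower. The medians were 0.19, -0.24, 0.13 and 0.25 in that order, beside 0.00 over all genes. Cell type markers differed there too. All 11 endothelial markers were lower in 129S1/SvImJ, with sums of 7259 to 7980 in C57BL/6 and 2637 to 4087 in 129S1/SvImJ. Of 9 mesothelial markers 4 were lower and 0 higher, with sums of 2015 to 3048 and 1611 to 1997 that did not overlap. Of 8 adipocyte markers 1 was higher and 3 lower, of 13 macrophage markers 1 and 3, and of 10 progenitor markers 1 and 1, and the sums of these 3 lists overlapped between the strains. The part of these markers in the members' values was not tested.

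The strain differences of the control diet, drug and 12w libraries can be read side by side, although the tables were normalized separately and no test was made across them. For Sorl1 the difference was -0.66 ± 0.18 on control diet and -2.50 ± 0.18 on rosiglitazone, beside -2.49 under the 12w label. For Tuba1a it was 0.88 ± 0.19 on control diet and -0.82 ± 0.19 on rosiglitazone, beside -1.49. For Ptges it was 1.15 ± 0.22 and -0.73 ± 0.22, beside -1.03. For Tlcd2 it was 2.32 ± 0.19 and 0.54 ± 0.19, beside -0.76. So Tuba1a, Ptges and Tlcd2 had opposite signs in the undrugged control diet and 12w libraries, both of which the labels give as control low fat diet D12450B. Of the 12w differences, that of Tlcd2 did not pass (adjusted p = 0.119, limma).

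**Figure D4:**
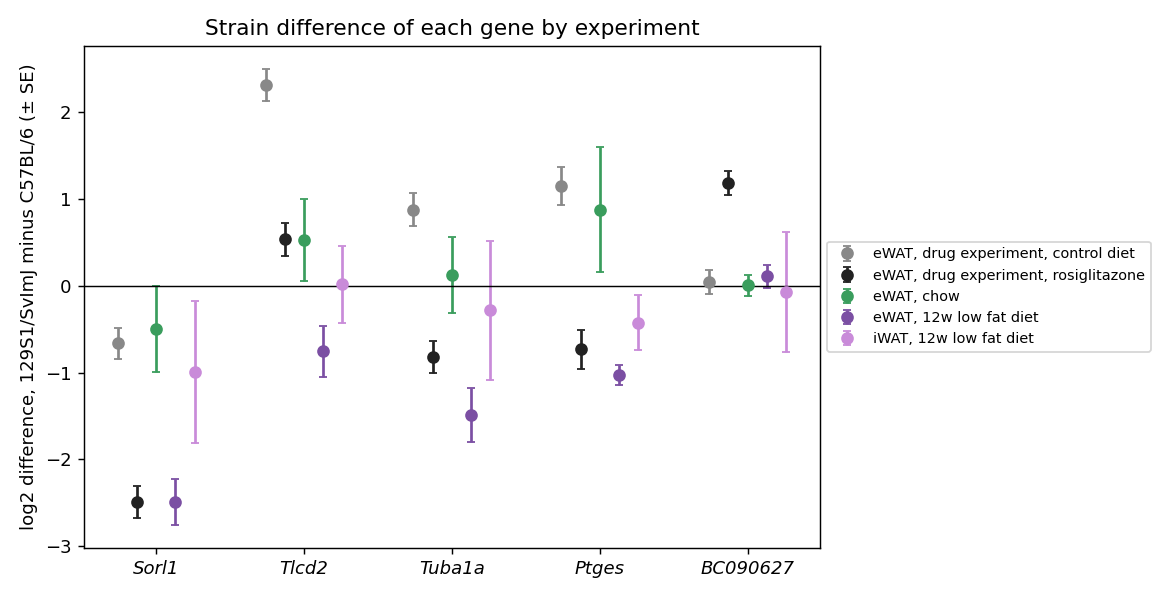
Strain difference, 129S1/SvImJ minus C57BL/6 (log2 difference ± SE), of each transcript in the 5 comparisons. Tlcd2, Tuba1a and Ptges are above 0 in the drug experiment's control diet groups (2.32, 0.88 and 1.15) and below 0 in eWAT under the 12w label (-0.76, -1.49 and -1.03). The -0.76 of Tlcd2 did not pass (adjusted p = 0.119, limma).

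**Figure D5:**
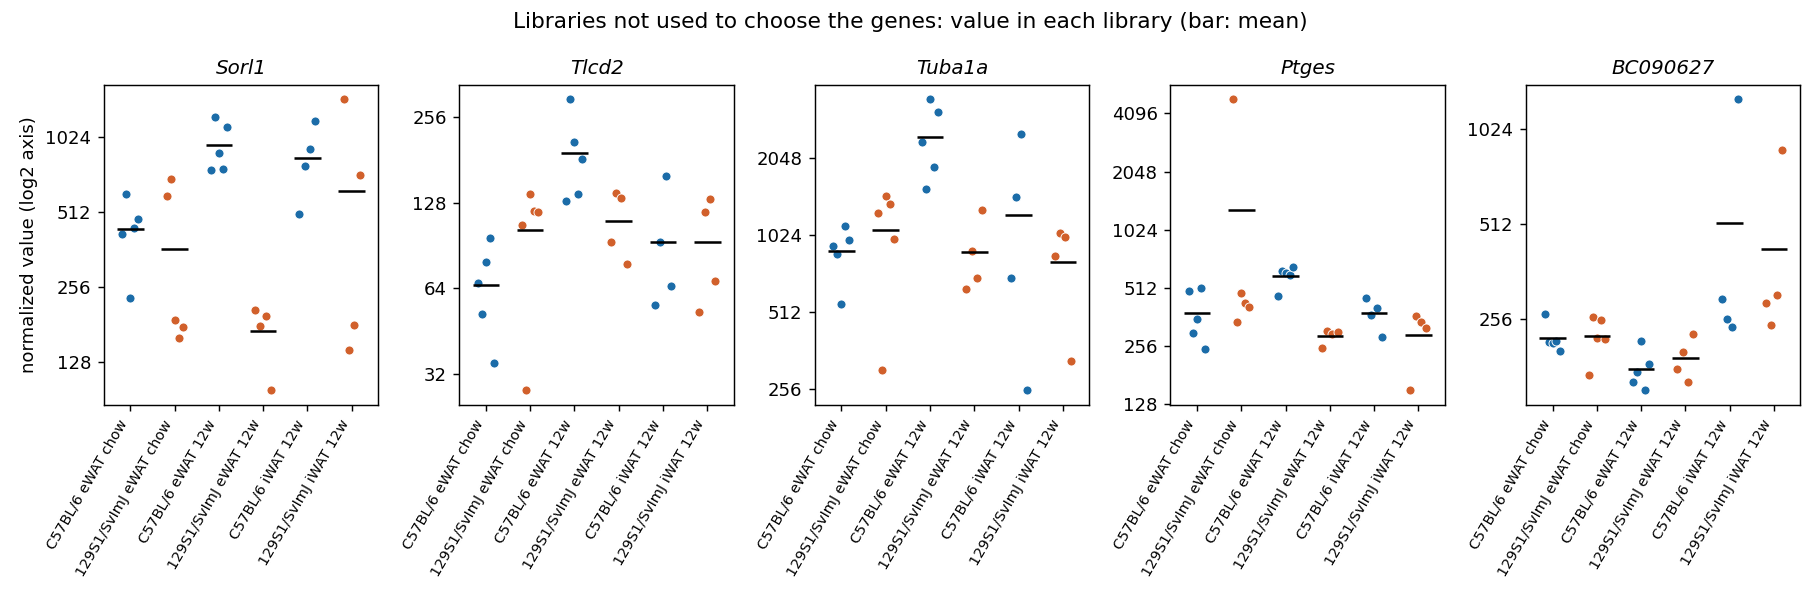
Normalized value (log2 axis) in each library outside the drug experiment, 1 panel per transcript, with C57BL/6 in blue, 129S1/SvImJ in orange and the group mean as a bar (n = 5 or 4 per group). In eWAT under the 12w label the strains lie apart for Sorl1, Tuba1a and Ptges, while single libraries such as 4835 for Ptges and 1268 for BC090627 stand far from their groups.

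In chow-fed eWAT 0 of the 5 passed with limma, beside 4.99% of all genes. At an unadjusted p under 0.05 there were 0 of the 5, beside 3924 of all 22869 genes. Sorl1 read 419, 604, 232, 441 and 481 in C57BL/6 and 591, 693, 190, 160 and 177 in 129S1/SvImJ, where the high pair are the libraries with high epididymis markers. The difference was -0.50 ± 0.50 (adjusted p = 0.678), and without those 2 libraries it was -1.24 ± 0.30 (adjusted p = 0.0472, limma). Ptges read 247 to 510 in C57BL/6 and 4835, 342, 484, 425 and 408 in 129S1/SvImJ, and the 4835 was in replicate 1. Its difference was 0.88 ± 0.72 with all libraries (adjusted p = 0.660) and 0.26 ± 0.27 without the 2 (adjusted p = 0.633). The authors' deposited table gives a log2 ratio of C57BL/6 to 129S1/SvImJ of -1.82 for Ptges, with a p-value of 9.96e-04. How that ratio was formed and whether that p-value was adjusted are not given, so it may be unlike the differences above. The group means were 380 ± 118 in C57BL/6 and 1299 ± 1977 in 129S1/SvImJ (SD, n = 5 each), the latter with the 4835 included.

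Tlcd2 read 67, 52, 79, 96 and 35 in C57BL/6 and 107, 28, 138, 120 and 119 in 129S1/SvImJ, with the 28 in the library of low adipocyte markers. The difference was 0.53 ± 0.47 (adjusted p = 0.666), and 1.00 ± 0.32 without the 2 libraries (adjusted p = 0.107). Tuba1a read 306 in that same library and 551 to 1460 in the other 9, with a difference of 0.13 ± 0.44 (adjusted p = 0.983), or 0.53 ± 0.25 without the 2 (adjusted p = 0.256). BC090627 read 203 to 266 and 170 to 260, a difference of 0.01 ± 0.12 with a 95% interval of -0.28 to 0.29, or 0.06 ± 0.10 without the 2.

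In iWAT under the 12w label 0 of the 5 passed with limma, beside 1.69% of all genes. At an unadjusted p under 0.05 there were 0 of the 5, beside 2875 of all 22869 genes. Sorl1 read 502, 780, 912 and 1182 in C57BL/6 and 1442, 143, 181 and 718 in 129S1/SvImJ. The 2 high 129S1/SvImJ libraries are those with high lymphocyte markers, and so is the highest of C57BL/6. The difference was -0.99 ± 0.82 (adjusted p = 0.793). Without those 3 libraries, an alternative chosen after seeing the data, it was -2.13 ± 0.27 (adjusted p = 0.00824, limma), from 3 C57BL/6 and 2 129S1/SvImJ libraries. Tlcd2, Tuba1a, Ptges and BC090627 did not pass in either fit.

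BC090627 had 1 high iWAT library in each strain, with 295, 255, 242 and 1268 in C57BL/6 and 287, 244, 305 and 874 in 129S1/SvImJ. In the same 2 libraries, replicate 4 of each strain, Cpt1b read 948 and 650 against 77 to 156 in the other 6. Both of these libraries are among the 3 with lymphocyte markers over 1000. They also held the highest iWAT values of Ucp1 (2108 and 2392) and Cidea (2118 and 1744), and the Cpt1b share of the sum was 76.4% and 75.8%. Tuba1a was lowest in these libraries, at 254 of 254 to 2538 in C57BL/6 and 332 of 332 to 1045 in 129S1/SvImJ. Ptges read 455, 369, 405 and 284 in C57BL/6 and 151, 365, 339 and 317 in 129S1/SvImJ, where the 151 is the library with the highest lymphocyte markers. Tlcd2 read 56 to 159 and 53 to 132.

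Depots were compared under the 12w label, where the eWAT and iWAT tables share their highest value. The C57BL/6 iWAT libraries are coarser, with 467 to 679 distinct values and 32.1% to 37.7% of genes at the floor, against 1293 to 1865 and 15.2% to 27.2% elsewhere. With limma 0 of the 5 passed in C57BL/6 (13.1% of all genes), in 129S1/SvImJ (1.72%) or for the strain-by-depot difference (3.14%). At an unadjusted p under 0.05 there were 4, 1 and 0 of the 5, beside 5973, 3036 and 3677 of all 22869 genes. The C57BL/6 values, iWAT minus eWAT, were -1.40 ± 0.57 for Tuba1a (adjusted p = 0.130), -1.08 ± 0.36 for Tlcd2 (adjusted p = 0.0676), -0.65 ± 0.22 for Ptges (adjusted p = 0.0746), 1.14 ± 0.46 for BC090627 (adjusted p = 0.130) and -0.20 ± 0.57 for Sorl1 (adjusted p = 1). Without the 3 lymphocyte-marker libraries Ptges passed in C57BL/6 (-0.52 ± 0.11, adjusted p = 0.0113), as did BC090627 (0.57 ± 0.14, adjusted p = 0.0199), and the strain-by-depot difference of Ptges passed too (0.81 ± 0.18, adjusted p = 0.0320). Mesothelial markers were near the floor in iWAT and not in eWAT, and their part in these values was not tested.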

How the data were processed

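RNA of 43 eWAT and iWAT libraries was analysed; F1 and nascent RNA samples were not analysed here. The authors deposited 1 normalized score per transcript and library, whole numbers with a floor of 1, and per the file headers also log2 ratios and p-values of their own comparisons. Per the submitters' processing notes, HOMER and mm9 were used. Counting options, the normalization step and any adjustment of those p-values: not given in the sources used here. For each of 22869 gene symbols the row with the highest total was kept. Tests used limma 3.58.1 (R 4.3.3) on log2(value + 1), with a trended and robust variance, two-sided, with Benjamini-Hochberg adjustment over all 22869 symbols and a threshold of 0.05. Each strain comparison outside the drug experiment used its own table; the drug experiment was fitted over its 16 libraries, whose comparisons share control libraries, and the depots over the 17 libraries under the 12w label. The fit was checked on simulated data.

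The members, gene lists and marker lists were chosen with earlier results of these data known; some list genes are not reported here and were left out of the lists' counts. The text names the 5 members, the 3 genes most like each, Pparg, and up to 4 passing genes per list and comparison by smallest p, and a gene that alone passed in its direction; Sort1, Tlcd1, Ptges2, Ptges3, Cpt1b and Chkb were added after their values were seen. Libraries with the same replicate number were not treated as pairs, and whether eWAT and iWAT libraries came from the same mice is not known. Alternatives covered the pseudocount, a value filter, scaling, summing of rows, variance settings, library weights, the replicate block and leaving out libraries.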

Additional observations from a re-analysis of the deposited data

Results flagged for a closer look

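Of 50 groups of libraries of the 5 transcripts, 8 had 1 library far from the others, where chance gives about 1 in 20. In chow-fed 129S1/SvImJ, Tlcd2 was lowest at 28 and Tuba1a at 306, both in replicate 2, and Ptges was highest at 4835 in replicate 1. These are the libraries with high epididymis markers. Ptges also had a low library at 166 in the C57BL/6 control diet group, at 466 in C57BL/6 eWAT under the 12w label and at 151 in 129S1/SvImJ iWAT. BC090627 was highest at 266 in chow-fed C57BL/6 and at 1268 in C57BL/6 iWAT.

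Among genes of the lists, the drug response differed between the strains (129S1/SvImJ minus C57BL/6, limma) for Tuba1b by -1.22, Tubb4b by -1.15, Gpd1 by -0.96, Mgll by 0.51 and Ucp1 by 4.62. The depot difference differed between the strains for Tubb3 by 2.39 and Tube1 by 2.06 on the log2 scale, both genes with low values near the floor.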

How the results depend on the processing

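For the 30 tested member results, 640 alternative values were computed: 591 kept direction and call, 1 lost its call, 17 passed that had not, and 31, over 11 results, changed sign, of which 0 had passed the threshold before or after. The 25 drug experiment results have no test; 4 of their 595 alternative values, over 2 results, changed sign. In 0 of 13 sets did every pair of libraries with the same replicate number have a correlation over 0.1, which cannot exclude shared mice. With the replicate block, genes called were 252 in chow, 1277 in eWAT 12w, 30 in iWAT, 256 for the 129S1/SvImJ depots and 220 for strain by depot; Tuba1a in eWAT 12w was -1.39 (adjusted p = 0.160), and Tlcd2 between C57BL/6 depots -1.08 (adjusted p = 0.00721). The cause was not tested.

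A value filter of 20 kept only genes that reached 20 in enough libraries to fill the smallest group, so fewer genes were tested. With this filter Tlcd2 passed in eWAT 12w (-0.76, adjusted p = 0.0218). Between C57BL/6 depots Tlcd2 (-1.08, adjusted p = 0.0227, limma) and Ptges (-0.65, adjusted p = 0.0287, limma) passed with it. Tuba1a (-1.40, adjusted p = 0.0468, limma) and BC090627 (1.14, adjusted p = 0.0480, limma) passed too, close to the threshold. Without the filter 13.1% of all genes passed between these depots, and the share with it is not reported here. Centred values gave Tlcd2 -1.08 there (adjusted p = 0.0499) and BC090627 -0.014 in chow, and a fit of these libraries alone Ptges -0.65 (adjusted p = 0.0369). Genes called moved by over 1.5 times to 220 in iWAT with a pseudocount of 8, to 164 in iWAT and 31 for strain by drug with rows summed, to 368 for rosiglitazone in C57BL/6 and 7 for strain by drug without trend and robust settings, to 3690 in chow with library weights, and, with separate fits, to 211 for the 129S1/SvImJ depots, 73 for rosiglitazone in C57BL/6 and 1407 between strains on rosiglitazone. Without chow-fed 129S1/SvImJ replicates 1 and 2, 2597 genes were called in chow and Sorl1 was -1.24. Without the lymphocyte-marker libraries, chosen after seeing the data, Sorl1 in iWAT was -2.13, Ptges and BC090627 between C57BL/6 depots -0.52 and 0.57, and Ptges for strain by depot 0.81; BC090627 in iWAT was 0.052, and between 129S1/SvImJ depots Sorl1 was -0.028, Tlcd2 0.22, Tuba1a 0.28 and Ptges 0.29, each with the opposite sign to the value from all libraries.

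Leaving out each library in turn gave 655 to 2564 genes called in chow (1142 with all), 68 to 194 in iWAT (387), 231 to 480 for the 129S1/SvImJ depots (393), 424 to 1122 for strain by depot (717), 275 to 741 for rosiglitazone in C57BL/6 (556), 788 to 1412 in 129S1/SvImJ (1261), 14 to 113 for strain by drug (48) and 1614 to 2664 between strains on rosiglitazone (2443). Between C57BL/6 depots Tlcd2 ranged from -1.38 to -0.88 and Tuba1a from -1.90 to -0.80, each passing without C57BL/6 iWAT replicate 3 (adjusted p = 0.0217 and 0.0322). Ptges ranged there from -0.75 to -0.52, and from 0.47 to 0.89 for strain by depot, each passing without 129S1/SvImJ iWAT replicate 1 (adjusted p = 0.00575 and 0.0353). Ranges that crossed 0 were -0.034 to 0.53 for Tuba1a and -0.050 to 0.10 for BC090627 in chow; -0.18 to 0.31 for Tlcd2, -0.89 to 0.22 for Tuba1a and -0.49 to 0.49 for BC090627 in iWAT; -0.39 to 0.024 for Sorl1 between C57BL/6 depots; -0.36 to 0.19 for Tuba1a and -0.18 to 0.24 for Ptges between 129S1/SvImJ depots; and -0.60 to 0.38 for BC090627 for strain by depot. The depth is unknown and the floor of 1 limits low genes.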
